A study of Homo sapiens with 9 samples.

Results

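Baseline gene expression of the control stable cells was read from the 3 arrays of this line, out of 9 arrays in the series. HCT116 is an established colon cancer cell line of epithelial origin. The control stable cells were derived from it with the GeneSwitch system, an inducible expression system that responds to mifepristone (MFP), a synthetic steroid. Its plasmid pSwitch makes a fusion transcription factor that MFP activates. This factor binds DNA through GAL4 from yeast and MFP through progesterone receptor sequence, and its activation domain comes from NF-kB. The cells described here carry pSwitch and an empty pGene/V5 plasmid, which holds no inserted gene to be induced, and they are 1 stable clone. MFP was given to every culture at 5 nM for 24 h, in medium with 10% fetal bovine serum. No array of cells without MFP or without the plasmids was used here, so that what the clone, the regulator and the inducer contribute to a level cannot be told apart. The other 6 arrays, of lines with an inducible protein, entered none of the values below. The study's methods describe 3 independent samples.

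Each probe set of the Affymetrix HG-U133 Plus 2.0 array, a group of short oligonucleotides for 1 transcript, gave 1 signal intensity on a linear scale. Intensities were ranked within each array among the 54613 human probe sets, and a percentile is the position in that ranking. A gene was represented by its brightest probe set, which gave 19775 genes. A gene was called bright when this probe set lay in the top 10% of all 3 arrays, and dim when all of its probe sets lay below the median of all 3 arrays. By these rules 3115 genes (15.8%) were bright, 5378 (27.2%) were dim, and 11282 lay in between. These shares are the background for the groups below. Families were drawn from the 16516 protein-coding genes alone, of which 18.8% were bright and 21.2% dim. For families these are the closer background. Intensity depends on how well the oligonucleotides bind as well as on the amount of RNA, so the order of genes is an order of signals and not of transcript numbers, and dim does not mean absent. On these arrays the median intensity was 72.5, 68.6 and 73.9 on replicates 1, 2 and 3, and the top 10% began at 1729, 1722 and 1732. A bright gene just inside the limit was PLEK2, at 1992, 2306 and 1732, and a gene just outside was EMP1, at 4833, 4896 and 1732, with replicate 3 next to the limit in both. Probe sets for Bacillus genes, which human cells lack, gave intensities from 0.886 to 109, and 25 of these 27 lay below the array median on all 3 arrays.

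The spread between arrays was small for bright genes and large for dim ones. The correlation of log2 intensities over all probe sets ranged from 0.893 to 0.899 between pairs of arrays, and over bright genes from 0.943 to 0.977. The median SD of log2 intensity was 0.17 for bright genes, 0.35 for genes in between and 0.93 for dim genes (n = 3), which correspond to median coefficients of variation of 11.4%, 24.1% and 58.2%. Without replicate 1 the median SD of bright genes was 0.10. Positions of dim genes relative to each other were therefore not interpreted.

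Epithelial cells hold a keratin skeleton and adhere to each other through cadherin and claudin junctions, and cells of the colon add transcription factors such as CDX1 and CDX2 and surface proteins such as CDH17, GPA33 and villin (VIL1). The control cells showed keratins of simple epithelia, EPCAM and E-cadherin at high intensity, and most of the intestinal genes near or below the array median. KRT18, a keratin of simple epithelia, had intensities of 52870.4, 57078 and 61366, a mean of 57105 ± 4248 (SD, n = 3). Its partner KRT8 was measured at 24686, 22701 and 25875. The adhesion molecule EPCAM was at 18461, 20473 and 22394, and KRT19 at 17816, 18688 and 17461. All 4 genes were in the top 10% of every array. KRT18 and KRT8 have 1 probe set each, of a kind marked as able to bind several genes. E-cadherin (CDH1) was at 4806, 4041 and 3850.0, and the claudin CLDN7 at 7135, 5335 and 7677. These 6 were the bright genes among 22 measured genes of colon epithelial identity, of which 5 were dim and 11 lay in between, against 15.8% bright and 27.2% dim over all genes. The median of the 22 genes lay at percentile 58.2, whereas that of all genes lay at percentile 64.7. Among protein-coding genes alone 18.8% were bright, 21.2% were dim and the median lay at percentile 72.4.

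CDX2, the master regulator of the intestinal epithelium, was read at 83.1, 129 and 112 by its brighter probe set, close above the array medians, and below them by the other one. KRT20, a keratin of mature colon cells, was dim at 49.4, 13.4 and 56.9. CDH17, the liver-intestine cadherin, was dim at 57.9, 17.6 and 15.8, TSPAN8 at 17.6, 21.7 and 22.5, PHGR1 at 18.6, 64.5 and 46.8 and CDX1 at 15, 18.2 and 22.9. VIL1 and GPA33 were above the median on replicate 1 and below it on replicates 2 and 3, at 81.8, 67.8 and 12.6 for VIL1 and 83.4, 62.4 and 13.1 for GPA33. LGALS4, another colon marker, was above the median on all arrays at 105, 112 and 122. CEACAM5, at 134, 228 and 63.9, was above it except on replicate 3, and CEACAM6, at 35.8, 118 and 126, except on replicate 1. The transcription factors KLF5, at 1482, 1701 and 1393, and ELF3, at 1007, 661 and 461, stood above the median throughout. Other general epithelial genes were not bright. The claudin CLDN4 was at 1189.8, 585 and 333, CLDN3 at 140.1, 92.8 and 58.4, below the median on replicate 3, and the epithelial transcription factor EHF at 131, 60.7 and 49.5, below it on replicates 2 and 3. Against the label of an epithelial colon line, KRT18, KRT8, KRT19, EPCAM, CDH1 and CLDN7 were thus bright and CLDN3 and EHF near the array median. The intestinal markers CDX1, CDH17 and KRT20 were dim, whereas CDX2 and LGALS4 were close above the array median.

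Of 49 measured markers of fibroblasts, endothelium, blood, neurons and glia, hepatocytes and muscle, none was bright, 20 were dim and 29 lay in between. Over all genes 15.8% were bright, and over protein-coding genes 18.8%. The dim share was 71.4% in endothelial, 57.1% in neuron and glia and 55.6% in fibroblast markers. It was 25% in hepatocyte and in muscle markers and 20% in leukocyte and blood markers. Over all genes the dim share was 27.2%, and over protein-coding genes 21.2%. Their highest intensity on any array was 774, for the collagen gene COL1A1, which was measured at 774, 476 and 426. Smooth muscle actin ACTA2 was at 764, 411 and 394 and the myelin gene MBP at 759, 649 and 547, and in all 3 genes replicate 1 was highest. Over all 9 fibroblast markers the intensities summed to between 636 and 1131 per array, over the 10 leukocyte and blood markers to between 605 and 872, and over the 22 colon epithelial genes to between 130407 and 141533. These sums cover unequal numbers of genes. Most of the last one came from KRT18, KRT8, EPCAM and KRT19, which are not specific to the colon. The defining markers PTPRC of leukocytes, at 33, 25.2 and 31.7, and VWF of endothelium, at 18.6, 29 and 23.1, lay below the array medians by their brightest probe sets, as did CD14 at 4.15, 3.84 and 4.78. VWF and CD14 were dim, whereas PTPRC lay in between, since another of its 5 probe sets was read at 81, 5.39 and 57.4, above the median on replicate 1. Other markers of the same lists lay above the medians on all 3 arrays. Among them were ITGAM of leukocytes, at 115, 89.3 and 83.2, and PECAM1 of endothelium, at 222, 143 and 139.

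**Figure D1:**
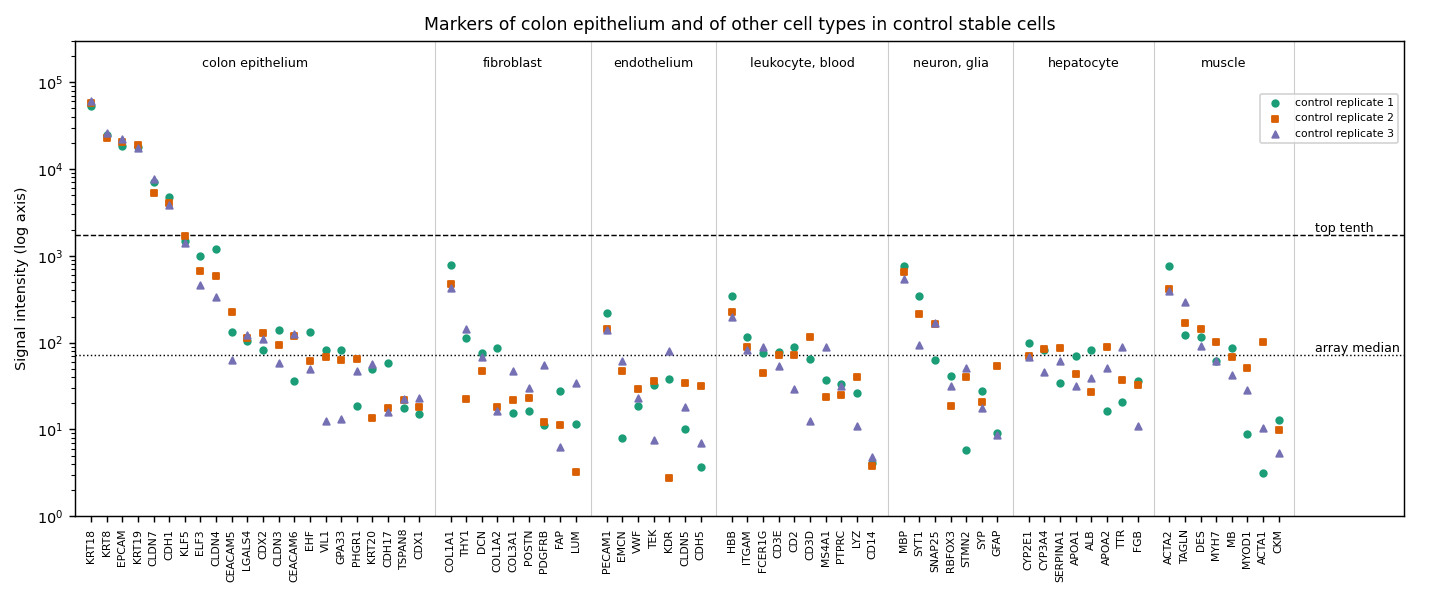
Signal intensity (log axis) of markers of colon epithelium and of 6 other cell types on the 3 control arrays, 1 symbol per array. The dashed line is where the top 10% of probe sets begins and the dotted line is the array median (both as the mean of 3 arrays). Only 6 markers, all of epithelium, lie above the dashed line.

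The brightest signals came from the machinery of protein synthesis and from the cytoskeleton. Among the 25 brightest genes were 16 cytosolic ribosomal proteins, and among the 100 brightest there were 46. RPS16, a protein of the small ribosomal subunit, was highest at 62025, 59703 and 60595 (mean 60774 ± 1171 (SD, n = 3)). Actin ACTB followed at 54959, 62641 and 61594, and RPL37A of the large subunit at 55409.7, 60054 and 62964. The elongation factor EEF1A1, which brings aminoacyl-tRNA to the ribosome, was at 52598, 59969 and 63226. For ACTB and EEF1A1 replicate 1 was lowest. In all 24 pairs of neighbours in this order the ranges over the 3 arrays overlapped. The other ribosomal proteins of this group were RPL8, RPS19, RPS23, RPL7, RPS10, RPL41, RPLP1, RPS6, RPL39, RPS18, RPL24, RPL30, RPS12 and RPS21.

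Outside the ribosome, the 25 brightest genes held KRT18, the growth-related protein TPT1 at 54000.4, 55012 and 59750.3, the chaperone HSP90AA1 at 48856, 52499 and 56959, the prolyl isomerase PPIA at 47322, 55060.1 and 55498, the tubulin TUBA1B at 44642, 54499 and 56623 and the mitochondrially encoded cytochrome oxidase subunit COX2 at 47524, 48624 and 53381. The remaining gene was HUWE1, a ubiquitin ligase, whose brightest probe set gave 48422, 51774 and 55064. The 4 other probe sets of HUWE1 gave at most 3411 on any array, and the one next in brightness was at 3411, 3267 and 2997. Of the 25 genes 19 were among the 25 brightest on every array, and the lowest position of any of them on 1 array was 39. For 12 of them, including KRT18, ACTB, TUBA1B, EEF1A1 and HUWE1, the brightest probe set has an "x" in its name. The manufacturer marks this kind as able to bind several genes, so that the gene of origin is uncertain. Without such probe sets 16 of the 25 stayed among the 25 brightest, KRT18 was not measured and TUBA1B was dim.

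**Figure D2:**
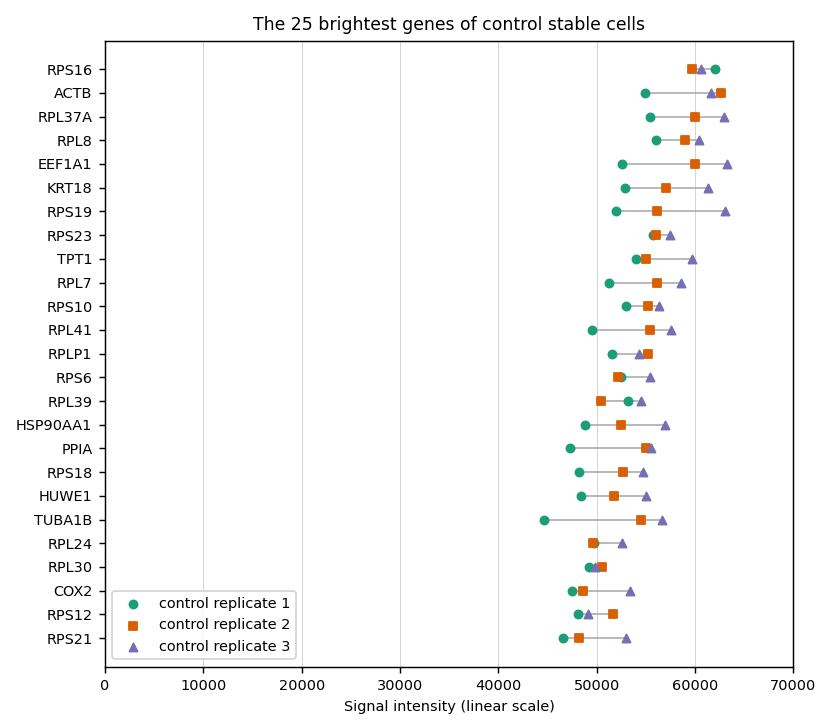
Signal intensity (linear scale from 0) of the 25 brightest genes on the 3 control arrays, 1 symbol per array, with a grey line from the lowest to the highest. All values lie between 44642 and 63226, and 16 of the 25 genes encode cytosolic ribosomal proteins.

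Families that every growing cell uses were mostly bright. Of 59 measured cytosolic ribosomal protein genes 53 were bright, with a median at percentile 99.7. RPL39L, RPL3L and RPL36A were dim, and RPL27A (420.3, 496 and 498), RPL10L (146, 90.8 and 86.5) and RPLP2 (70.2, 67.2 and 158) lay in between; RPL39L, RPL3L and RPL10L are known as tissue-restricted copies, and 3 of the 6 genes also have probe sets with several symbols, which were not used. Mitochondrial ribosomal proteins were bright in 69 of 75 genes, with MRPL3 first at 16839, 21192 and 20050.3, and none was dim. All 15 aminoacyl-tRNA synthetases, which charge tRNA with amino acids, were bright, from KARS1 at 22438, 26433 and 24606 downwards. Among initiation factors 34 of 41 were bright, led by EIF1 at 37832, 42342 and 44277 and EIF5A at 27491, 34289.5 and 37092, and EIF4A2 was dim at 11, 30.0 and 43.9. EIF4A2 was read by 1 probe set and also has probe sets with several symbols, which were not used.

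Protein folding and turnover showed the same picture. Of the 8 subunits of the CCT chaperonin, which folds actin and tubulin, 7 were bright, with CCT2 at 31284, 35800.4 and 38870.1; the exception was CCT6B, a testis form, at 172, 264 and 273. Proteasome subunits were bright in 30 of 34 genes, led by PSMB1 at 23780.1, 25273 and 24464. The 4 others were the 3 subunits of the immunoproteasome, PSMB10 at 1370.1, 1229 and 582, PSMB9 at 1266, 681 and 574 and PSMB8 at 6.77, 3.69 and 4.79, and PSMA8, a testis subunit, at 23.8, 3.73 and 48.2. PSMB8 and PSMA8 were dim. Of 24 heat shock protein genes 12 were bright and 5 were dim. After HSP90AA1 came HSPD1 at 44709, 50444 and 49798 and HSP90AB1 at 35843, 40646 and 47118. Among the dim ones was HSPB2 at 10.5, 6.26 and 4.77, which also has probe sets with several symbols that were not used.

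Splicing genes were bright in 18 of 19 hnRNP genes, 9 of 10 SR factors and 20 of 23 genes of the Sm and LSm proteins. HNRNPA2B1 was at 18789, 24799 and 23596 and SRSF3 at 10006, 15549.8 and 17393, both lowest on replicate 1. The dim members were SRSF12 at 32.8, 65.8 and 25.9 and the imprinted SNRPN at 30.3, 34.8 and 32.3. SNRPN also has probe sets with several symbols, which were not used.

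Genes of energy metabolism followed. In the respiratory chain 29 of 32 complex I subunits, 10 of 16 cytochrome oxidase subunits and 16 of 17 ATP synthase subunits were bright. COX4I1 was at 27176, 28216 and 27148 and ATP5F1B at 27011, 28060.5 and 26534, and ATP5MF was the dim ATP synthase gene at 11.3, 18.7 and 11 by 1 probe set. ATP5MF, too, has probe sets with several symbols, which were not used. The 3 dim cytochrome oxidase genes, COX8C, COX7B2 and COX7A1, are known as forms of testis or muscle, and COX7A1 was read at 5.43, 11.5 and 5.14. Glycolysis, which turns glucose into lactate, was bright in 15 of 18 genes, with a median at percentile 99.2. GAPDH was at 40947, 47130.0 and 47412, TPI1 at 34448, 35965 and 38001, LDHB at 32215, 36361 and 36704 and LDHA at 31653, 36573 and 33893. The 3 genes that did not pass were PFKL at 1505, 1724 and 1484, the glucose transporter SLC2A1 at 694, 626 and 1077 and ALDOC at 850.5, 240.2 and 168, the last of which was highest on replicate 1. Citrate cycle genes were bright in 13 of 16, led by MDH2 at 25562, 18336 and 16896, CS at 8715, 9548 and 8496 and SDHD at 8963, 8683 and 6581.

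Iron and antioxidant genes were bright in 16 of 21. Ferritin FTL was at 45267, 46707 and 41771, the peroxiredoxin PRDX1 at 36106, 38045 and 42285, superoxide dismutase SOD1 at 28559, 30621 and 28693 and catalase CAT at 28594, 21489 and 18788. The iron exporter SLC40A1, at 84.2, 24.5 and 55.8, and the intestinal peroxidase GPX2, at 154, 94 and 6.21, were the lowest. Among 18 genes of sterol and fatty acid synthesis 6 were bright and none was dim. The desaturase SCD was read at 17122, 9867 and 6539.7, and its 3 arrays differed more than those of fatty acid synthase FASN at 9254, 9033 and 9048. Of 15 amino acid transporters 6 were bright, including SLC38A2 at 16481, 18718 and 10432 and SLC7A5 at 9300.4, 12689 and 10893.

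**Figure D3:**
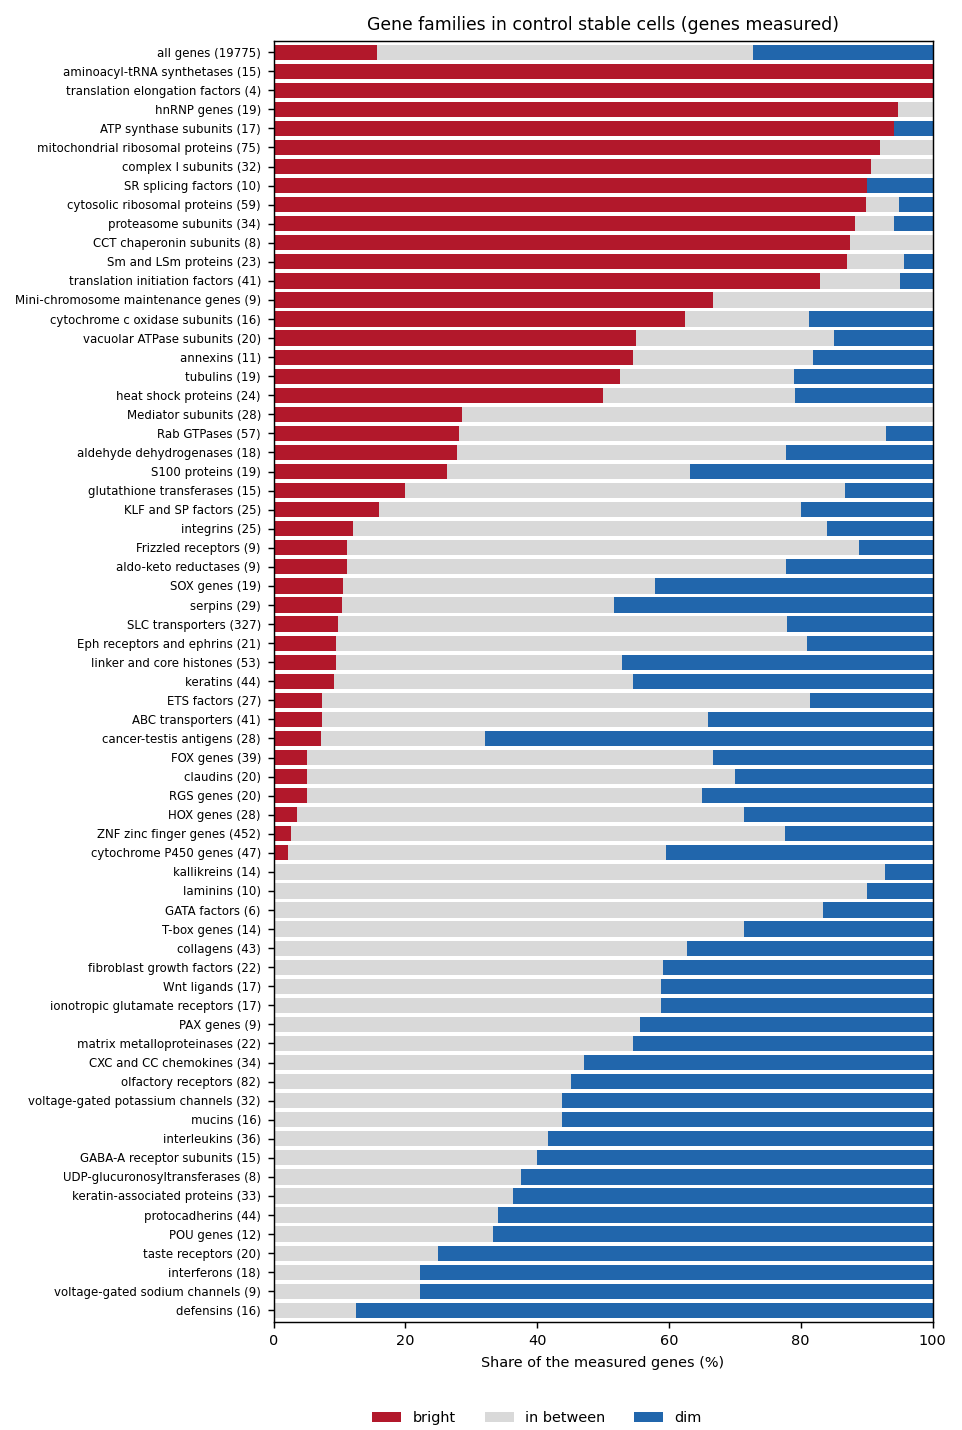
Share of bright, in-between and dim genes in 66 gene families, with the number of measured genes in brackets and all genes on top. Families of protein synthesis, splicing, folding and respiration are mostly bright, and defensins, interferons, voltage-gated sodium channels and taste receptors mostly dim.

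Genes of dividing cells were mostly bright. Among 24 genes of mitosis 21 were bright and none was dim. The kinase CDK1, which drives entry into mitosis, was at 12277, 10596 and 11658, its partner CCNB1 at 7997, 10254 and 9907, the checkpoint protein MAD2L1 at 10763, 11393 and 11459 and the spindle protein NUSAP1 at 9903, 8828 and 8493. The genes in between were KIF11, CENPA and CENPE, the last at 815, 889 and 883. CENPA also has probe sets with several symbols, which were not used. In DNA replication 23 of 29 genes were bright. The reductase subunit RRM2, which makes deoxynucleotides, was at 23783, 30020.1 and 31481, TYMS at 19059.8, 24116 and 21058 and the sliding clamp PCNA at 12834, 16174 and 16236. Of the 6 subunits of the MCM2 to MCM7 helicase all were bright, from MCM7 at 8769, 13943 and 11282 to MCM5 at 3336, 5517 and 4447. Replicate 1 was highest for none of the 29 replication genes, and their median log2 difference between replicate 1 and the mean of the other arrays was -0.44. Over the 14397 genes that were not dim, replicate 1 was highest in 40.5% and this median difference was 0.06. What sets replicate 1 apart was not tested.

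The G1 regulators CCND1, at 6971, 9477 and 10112, and CDK4, at 6204, 8394 and 8531, were bright, and CCND2 was lowest of that list at 83.5, 65.6 and 37.7. The tumour suppressor p53 activates genes of cell cycle arrest and death. Of 23 measured p53 target genes 8 were bright, and none was dim. SFN (14-3-3 sigma) was at 19245, 22785 and 22891, cyclin G1 (CCNG1) at 13139, 8367 and 7616, MDM2, which degrades p53, at 4548, 6109.7 and 6859, and PMAIP1 (NOXA) at 5431, 6719.7 and 4986. The inhibitor CDKN1A (p21) was at 7229, 4110.0 and 4803 and highest on replicate 1. The stress cytokine GDF15 varied most in this list, with 7020.4, 2403 and 914, and lay in between. Replicate 1 was highest in 15 of the 23. In the BCL2 family 5 of 18 genes were bright, with the survival factor MCL1 at 4181, 6026 and 7950.4; BCL2 itself was at 124, 159 and 106, and BMF and BCL2A1 were dim.

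Wnt signalling keeps colon stem cells dividing and is active in most colon tumours. Its nuclear effector CTNNB1 (beta-catenin) was bright at 16492, 15072 and 18409. The Wnt antagonist DKK1 was at 26704, 32483 and 34934, the brightest of 23 stem cell and Wnt target genes. MYC was at 9881, 13734 and 9492, and the transcription factor TCF7L2, the main partner of beta-catenin in the colon, at 7841, 5695 and 4367. CCND1, SOX9 and CD44 were bright as well. The stem cell markers LGR5, at 44.8, 4.15 and 16.4, OLFM4, at 32, 35.4 and 1.94, and PROM1, at 7.75, 7.02 and 4.88, were dim, and so were LEF1, ASCL2, TNFRSF19, SMOC2 and SP5. AXIN2 was read at 494, 660.1 and 889. The list held 6 bright and 8 dim genes of 23. None of 17 Wnt ligands was bright, with WNT16 first at 3122, 1808 and 1385, and of 9 Frizzled receptors FZD6 was bright at 2884, 2564 and 3200.1.

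Of 22 listed colon cancer genes 15 could be placed on the array here, of which 7 were bright and none dim. The TGF-beta mediators SMAD2, at 4221, 3419 and 3535, and SMAD4, at 2489, 2298 and 2504, were bright, and so was the receptor TGFBR1 at 2092, 2189 and 2049. The second receptor, TGFBR2, lay in between at 499, 620.0 and 761. APC, part of the beta-catenin destruction complex, was at 407, 421 and 363, and BAX, a cell death effector, at 338, 541 and 454. CDKN2A was bright at 1814, 2248 and 1734 by 1 probe set marked as able to bind several genes, and dim by another. Among 10 measured genes of mismatch repair and its synthesis step PCNA, RPA1, MSH6 and RFC1 were bright. MSH6, which recognises mismatches, was at 5366, 6213 and 6964. MSH3 was lowest, at 144, 301 and 242 by its brightest probe set and below the median on all arrays by another. These intensities do not show whether a gene carries a mutation.

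Mature colon cells make mucus, absorb salt or produce hormones. Of 23 genes of such cells 16 were dim and 1 was bright. The bright one was CA2, a carbonic anhydrase, at 35911, 35342 and 39119 (mean 36791 ± 2036 (SD, n = 3)). SLC26A2, a sulphate transporter, was next at 560.0, 624 and 681. The main colon mucin MUC2 was at 83.1, 38.5 and 223, the absorptive cell gene CA1 at 58.2, 62.4 and 88.2, and the goblet cell gene AGR2 at 5.78, 33.7 and 13.3. SI (sucrase-isomaltase) and MS4A12 were at 22.8, 15.7 and 10.2 and 9.11, 5.84 and 6.14. No mucin was bright among 16 and 9 were dim.

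Junction genes were bright in 10 of 24. Alpha-catenin CTNNA1, which links cadherins to actin, was at 11916, 10507 and 11976, plakoglobin (JUP) at 5946, 6052 and 5363, the epithelial splicing factor ESRP1 at 6454, 4815 and 5238 and the tight junction protein TJP1 at 4722, 5401 and 5337. Of the same 24 genes 11 lay in between and 3 were dim, the mesenchymal factors ZEB2 and TWIST1 and N-cadherin (CDH2). This dim share of 12.5% lay below the 21.2% of protein-coding genes. The mesenchymal filament VIM was at 152, 98.1 and 120.4 by its brighter probe set, above the median of every array. Of 23 cytoskeletal genes 20 were bright. Of 44 keratins 4 were bright, KRT18, KRT8, KRT19 and KRT10, and 20 were dim. Integrin ITGB1, the common beta chain of matrix receptors, was at 17945, 16785 and 16264. No collagen was bright among 43, and 16 were dim. Annexins were bright in 6 of 11, led by ANXA2 at 37863, 39247 and 41009.

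**Figure D4:**
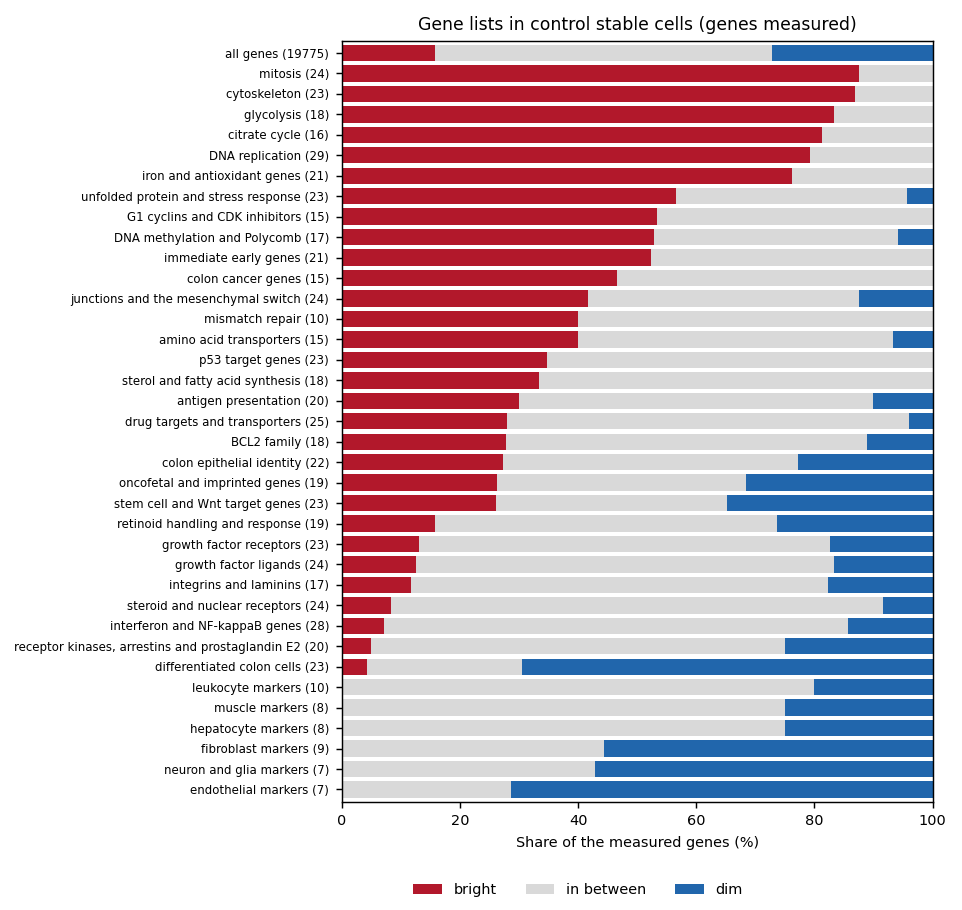
Share of bright, in-between and dim genes in 36 gene lists, with the number of measured genes in brackets and all genes on top. Mitosis (21 of 24 bright) and the cytoskeleton (20 of 23) are at one end and markers of other cell types (none bright) at the other.

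Growth factor receptors and ligands lay mostly in between, as did 11282 of all 19775 genes. Their bright shares were 13% and 12.5%, near the 15.8% of all genes and below the 18.8% of protein-coding genes. Among 23 growth factor receptors MET, FGFR3 and EPHA2 were bright, and MET, the receptor of hepatocyte growth factor, was first at 8994, 7448 and 8277. EGFR was at 1148, 759 and 688, and KIT, PDGFRB, PDGFRA and ERBB4 were dim. Among 24 ligands EREG (epiregulin) was at 6023, 10322 and 8548, TGFA at 2779.8, 2036 and 1808 and TGFB1 at 1847, 2051 and 1932, and these 3 were bright. Immediate early genes, which growth factors switch on, were bright in 11 of 21 and dim in none. IER3 was at 14299, 11407 and 9534, PHLDA1 at 12248, 13781 and 8630.2 and JUND at 14137, 8878 and 8428, whereas EGR3 and FOSB were lowest, with EGR3 at 53.3, 54.2 and 202. Stress genes of the endoplasmic reticulum were bright in 13 of 23, including the chaperone HSPA5 at 28358, 28004 and 28028 and the transcription factor ATF4 at 15836, 18871 and 18649.

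Steroid and nuclear receptors are transcription factors switched on by small molecules. Of 24 measured receptors 2 were bright, and the brightest was the progesterone receptor PGR (chromosome 11, 101029624 to 101129813 of GRCh38). One of its probe sets was read at 6915, 5895 and 7659, and the other at 52.6, 43.4 and 7.01, below the median of every array. pSwitch encodes part of PGR, and MFP binds that receptor; where in PGR the oligonucleotides of either probe set lie is not given in the sources used here, so that RNA of the plasmid and of the gene cannot be told apart. The same holds for RELA, an NF-kB subunit, since pSwitch encodes the activation domain of an NF-kB protein. RELA was bright by both probe sets, at 7229, 6867 and 8648 and at 4203, 4036 and 3416. The second bright receptor was NR2F1 at 2219, 2129 and 2162. The glucocorticoid receptor NR3C1, to which MFP also binds, was at 542, 616 and 493, and the vitamin D receptor VDR at 1377, 1322 and 1394. ESR1 was at 128, 16 and 105, and RXRG and NR1I3 were dim. RARA was read at 4042, 1417 and 539.8 by a probe set in which replicate 1 stood apart, and at 454, 422 and 387 by the next.

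RARRES1, the gene also called TIG1 that the study induced in its other lines, was dim on all 3 of its probe sets, the brightest at 57.9, 48.8 and 4.8. Its relative LXN was dim at 5.22, 7.79 and 17.7. Among 19 retinoid genes ALDH1A3, which makes retinoic acid, was bright at 20503, 17469 and 14316, and RDH10 and RDH11 were bright too. ALDH1A1, a related enzyme, was dim at 9.39, 4.44 and 5.8. PLAAT4 was at 125, 111 and 3123, high on replicate 3 alone. GRK5, a kinase that turns off G protein-coupled receptors, lay in between at 1269, 627 and 1363 by its brightest probe set, and lowest on replicate 2. The probe set that the study lists for GRK5 was at 533, 356 and 572. Its remaining probe sets were at 213, 198 and 244 and at 118, 100 and 139, also above the array medians. PTGS2, the inducible cyclooxygenase of prostaglandin synthesis, was dim at 50.8, 7.5 and 33.7.

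HLA class I genes present peptides at the cell surface. HLA-C was at 22932, 21357 and 25415, HLA-B at 14449, 14115 and 14856 and their light chain B2M at 24947, 19211 and 22679. HLA genes are similar in sequence and these signals may be shared; without probe sets marked as able to bind several genes the median of the antigen presentation genes fell by 16.5 percentile points. The class II activator CIITA was dim at 46, 56.4 and 48.6. Of 28 interferon and NF-kB genes ISG15, at 27211, 15817 and 15868, and RELA were bright, and IL6, CXCL2, CCL20 and IFI44L were dim. Among 25 drug targets and transporters 7 were bright. The fluorouracil target TYMS is given above, the irinotecan target TOP1 was at 8563, 8264 and 8036, GSTP1 was at 17997, 15179 and 13179.8 and NQO1 at 12075, 11187 and 11334. The efflux pump ABCB1 was at 86.6, 49.7 and 40.9, and UGT1A6, which conjugates drugs, was the dim gene of the list. ABCB1 and UGT1A6 also have probe sets with several symbols, which were not used.

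In 15 of the 66 families 50% or more of the genes were dim. No member was bright among 82 olfactory receptors, 20 taste receptors, 44 protocadherins, 32 voltage-gated potassium channels, 9 sodium channels, 15 GABA-A receptor subunits, 18 interferons, 36 interleukins, 34 chemokines, 16 defensins and 33 keratin-associated proteins. The share of dim genes was 87.5% in defensins (14 of 16), 77.8% in interferons and in voltage-gated sodium channels, 75% in taste receptors, 67.9% in cancer-testis antigens, 66.7% in POU genes, 62.5% in UDP-glucuronosyltransferases, 56.3% in mucins and 54.9% in olfactory receptors. It was 41.2% in ionotropic glutamate receptors (7 of 17), 19% in Eph receptors and ephrins (4 of 21) and 11.1% in Frizzled receptors (1 of 9). The last 2 lay below the 27.2% of all genes and the 21.2% of protein-coding genes. Of 102 lists and families 19 had 50% or more of their genes dim, and 28 had 50% or more bright.

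Some families with few bright members held single bright genes. The dim share was 67.9% in cancer-testis antigens, 47.2% in histones and 42.1% in SOX genes. It was 40.4% in cytochrome P450 genes and 28.6% in HOX genes, against 21.2% of protein-coding genes. MAGEB2 and MAGEA6, antigens normally restricted to the testis, were at 9956, 9609 and 9638 and 7572, 9469 and 9776, while 19 of 28 cancer-testis antigens were dim. The probe set of MAGEA6 is marked as able to bind several genes. CYP24A1, which degrades vitamin D, was at 10955, 9719 and 8466 and the bright gene among 47 cytochrome P450 genes. HOXB7 was the bright gene among 28 HOX genes, at 2665, 3944 and 2808. SOX9 and SOX4 were bright among 19 SOX genes. Among 53 histone genes 5 were bright, led by the replacement histone H2AZ1 at 33558, 35374 and 35451, and 25 were dim. Of the histone genes that were not bright 22 also have probe sets with several symbols, which were not used.

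Promoter windows were compared as a feature that the ranking did not use. Windows of 250 bases before the transcription start came from RefSeq (GRCh38.p14), for 10094 of 11307 protein-coding genes (89.3%) on the 15 chromosomes where at least 80% of such genes have an entry. The CpG ratio, observed over expected CG pairs, had a median of 0.865 in 1876 bright genes, 0.768 in 6046 genes in between and 0.439 in 2172 dim genes. A ratio over 0.6 was found in 89.8%, 70.3% and 38.9% of them, in 67.2% of the 10094 genes together, and in 47.4% of all 27305 windows of the table. From the lowest to the highest of 10 groups by intensity the median ratio went from 0.407 to 0.874. The letters TATAAA, searched on the strand of the gene from 50 to 11 bases before the start, were found in 1.71% of bright, 2.51% of in-between and 6.91% of dim genes, in 3.31% of the 10094 genes together, and in 2.81% of all windows. By intensity the share was 7.73%, 5.65% and 6.44% in the 3 lowest groups, 0.694% in the ninth and 2.57% in the highest. Dim genes made up 999 of 1009 genes in the lowest group and 803 of 1009 in the next, so that no order between these groups was read. These are descriptions without a test, and genes are not independent replicates.

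**Figure D5:**
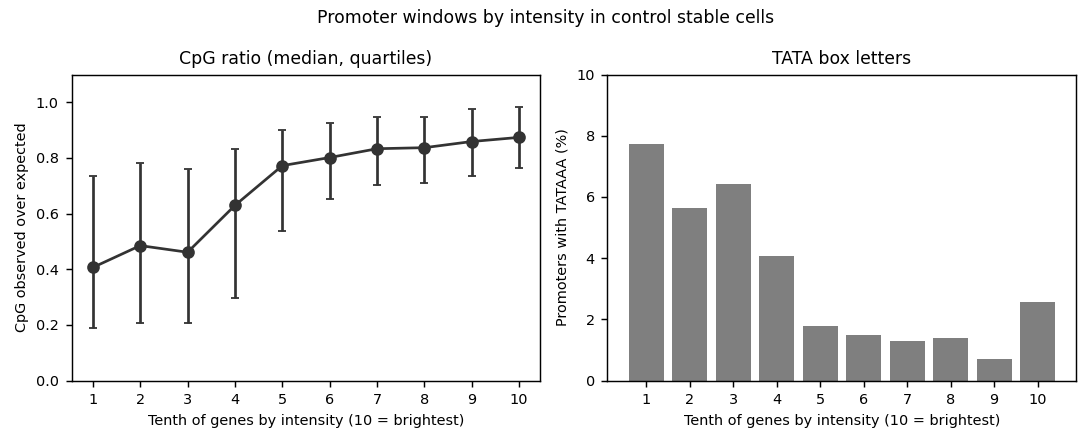
Promoter windows of 10094 protein-coding genes in 10 groups by intensity in control cells (10 is brightest). Left, CpG observed over expected (median, with bars from the lower to the upper quartile), from 0.407 to 0.874. Right, share of windows with the letters TATAAA near the start, 7.73% in the lowest group, 0.694% in the ninth and 2.57% in the highest.

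Examples of either kind are shown to let the contrast be read in the letters. They are the last 120 bases before the start on the strand of the gene, 5′ to 3′, with every CG pair in capitals, for 3 bright genes and 3 dim genes of the colon chosen after their values were seen.
RPS16: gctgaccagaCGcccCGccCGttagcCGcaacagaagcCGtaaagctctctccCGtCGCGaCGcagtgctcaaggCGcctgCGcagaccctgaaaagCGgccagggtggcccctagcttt
EEF1A1: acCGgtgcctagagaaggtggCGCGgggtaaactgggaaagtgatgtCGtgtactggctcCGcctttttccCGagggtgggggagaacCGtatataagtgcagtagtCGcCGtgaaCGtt
DKK1: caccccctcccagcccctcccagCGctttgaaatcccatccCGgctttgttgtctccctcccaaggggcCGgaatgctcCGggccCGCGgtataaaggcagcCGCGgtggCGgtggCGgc
KRT20: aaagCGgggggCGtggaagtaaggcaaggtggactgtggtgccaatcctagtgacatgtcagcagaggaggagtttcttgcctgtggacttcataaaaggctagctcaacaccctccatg
OLFM4: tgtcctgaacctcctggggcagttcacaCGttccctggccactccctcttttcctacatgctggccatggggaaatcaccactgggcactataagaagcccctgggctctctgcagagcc
MS4A12: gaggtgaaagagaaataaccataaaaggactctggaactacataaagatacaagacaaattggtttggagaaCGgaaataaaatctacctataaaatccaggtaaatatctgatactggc
In this order they are RPS16 chr19:39435950-39436069 (minus strand), EEF1A1 chr6:73521033-73521152 (minus strand), DKK1 chr10:52314161-52314280 (plus strand), KRT20 chr17:40885243-40885362 (minus strand), OLFM4 chr13:53028693-53028812 (plus strand) and MS4A12 chr11:60492658-60492777 (plus strand) of GRCh38.p14.
The windows of bright genes held 10 to 12 CG pairs and those of dim genes 1 or 2. DKK1 and MS4A12 hold the letters tataaa, so that a bright and a dim gene share them. The contrast does not hold for every gene: the same window of the bright KRT8 held 1 CG pair and that of the dim PROM1 held 8.

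Between the 3 arrays, single genes differed more than their class did. The 5 bright genes with the largest SD of log2 intensity were ID1, at 11938, 6018 and 1803, ATP6V1D, at 1896, 2469.8 and 5708, MT1E, at 2586, 7953 and 4365, TMEM256, at 5805, 2270.2 and 2221, and SEL1L3, at 6912, 3046 and 2532. Replicate 1 was highest for ID1, TMEM256 and SEL1L3, replicate 2 for the metallothionein MT1E, and replicate 3 for ATP6V1D. Among 7296 genes with a mean above an intensity of 500, replicate 1 was more than 2-fold above both other arrays in 52 genes and more than 2-fold below in 27. These numbers were 1 and 3 for replicate 2 and 7 and 28 for replicate 3. Where 1 array stood this far above both others, the mean of the gene rests largely on that array. TSPAN6, chosen after its values were seen, was at 569, 423 and 3440.4, high on replicate 3 by both of its probe sets.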

How the data were processed

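Total RNA of 3 samples of control stable HCT116 cells was labelled and hybridised to 1 Affymetrix HG-U133 Plus 2.0 array each. The deposited values are signal intensities, which the authors made with the GeneChip Operating System, using global scaling with 500 as the target. A trimmed mean of each array, leaving out 2% at either end, was checked and equals 500. Neither scans nor Present calls were read here. Sources differ on the unit of the MFP dose, µM in the text on the series and nM in the labels and methods, and the latter was taken. RNA amounts for labelling also differ between the sources.

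The 62 control probe sets of the array entered no ranking. Of 54613 human probe sets 41091 have 1 gene symbol in the platform annotation, 41037 of them matched by gene number to GRCh38 names, 1801 have several and 11721 have none. Intensities under 1 were set to 1 before log2. Values were ranked within each array with pandas 2.3.3 and numpy 2.4.6 in Python 3.11.15, and the figures were drawn with matplotlib 3.10.9. The code for the ranking was run on simulated arrays, with chosen genes set well inside the bright or the dim range. All probe sets of a chosen gene had the same level, so that disagreement between them was not covered. No statistical test was made, since 1 group was described. Values are given for replicates 1, 2 and 3 in that order, and the number of arrays limits their precision.

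Named were the 25 brightest genes, members of the colon, colon cancer, mismatch repair and nuclear receptor lists, up to 4 brightest and 3 dimmest members of other lists and families, the exceptions in mostly bright or dim ones, the 5 most variable bright genes and the 5 genes whose probe sets differ most. Other genes were chosen after their values were seen. The members and lists were chosen with earlier results of these data known, and 9 family patterns were tightened after the values were seen, to leave out symbols that are not of the family. Some listed genes are not reported here. Protein features were not computed.

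Alternatives were averaging all probe sets of each gene, leaving out probe sets marked x, 2 of 3 arrays, each array left out, and other limits for bright and dim.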

Additional observations from a re-analysis of the deposited data

How the results depend on the processing

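No paired analysis was possible because the results come from no test and from 1 group. The number of bright genes, 3115, became 1605 when all probe sets of each gene were averaged and 1489 with a limit at the top 5% of the array, and ranged from 3189 to 3303 when an array was left out. With an intensity of 2000 on all arrays it was 2736, without probe sets marked x 2981 and on 2 of 3 arrays 3512. The number of dim genes, 5378, fell to 3149 with a limit at the 40th percentile, reached 7207 with the mean over probe sets and 7196 on 2 of 3 arrays, and ranged from 5959 to 6032 when an array was left out. Lists and families with 50% or more of their genes bright numbered 28, and 16 with the mean over probe sets, 24 without probe sets marked x, and 28 to 30 without 1 array. The median SD of bright genes, 0.17, ranged from 0.10 (without replicate 1) to 0.16 when an array was left out. The share of bright genes with a CpG ratio over 0.6 lay between 89.3% and 89.8% with the mean over probe sets, without probe sets marked x, on 2 of 3 arrays and without each array, and was not computed with other limits. Of the 25 brightest genes 16 stayed without probe sets marked x, and 23 to 24 without 1 array. Of the medians of 102 lists and families 83 moved by more than their spread between arrays with the mean over probe sets, by a median of 8.79 percentile points among these 83, and 27 without probe sets marked x. Of 644 genes in the lists 162 changed class with the mean over probe sets, 65 on 2 of 3 arrays and 18 to 28 when an array was left out, none of them from bright to dim or back. Without probe sets marked x 625 remained, KRT18 and KRT8 not among them, of which 13 changed class, TUBA1B and IDI1 from bright to dim. Among 2104 genes with a bright probe set and at least 1 more, 664 (31.6%) also had a probe set that was dim on all arrays.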

Other observations

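Long non-coding RNA genes were dimmer than protein-coding genes on these arrays. Of 2656 such genes 8 were bright and 1590 (59.9%) were dim, with a median at percentile 32.7, whereas that of 16516 protein-coding genes lay at percentile 72.4. The bright ones were ZFAS1, at 22869, 15778 and 15208, NORAD, at 5153, 6128 and 11629.6, COLCA1, SNHG32, CHASERR, FGD5-AS1, DANCR and SNHG19. NORAD was highest on replicate 3. ZFAS1 and the SNHG genes are known as hosts of small nucleolar RNAs. Probe sets without a gene symbol had their median at percentile 30.3, but 257 of 11721 were in the top 10% of all 3 arrays.

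The beta-globin region of chromosome 11 held genes at unequal levels, which was noticed after the values were seen. The embryonic globin HBE1 (5268345 to 5269945 of GRCh38) was bright at 6616, 2565 and 2855, highest on replicate 1, by 1 of its 2 probe sets. The adult globin HBB was at 347, 225 and 199, and HBD was dim at 27.4, 44.3 and 12.4. On the other side of HBE1, the olfactory receptor genes OR51B4 at 874, 428 and 779, OR51B2 at 849, 429.9 and 444 and OR51B5 at 766, 706 and 663 were the 3 brightest of 82 olfactory receptors, while OR51B6 was dim at 21.2, 37.6 and 71.8. The RefSeq span of OR51B5 (5340318 to 5505652) includes OR51B6. Whether these signals come from separate transcripts was not tested.

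The 5 genes with the largest gap between their brightest and dimmest probe set were RPLP1, BTF3, CLTC, HSPD1 and GNAS. For RPLP1 the gap was 12.81 on the log2 scale, with 51591, 55223 and 54285 on one probe set and 6.74, 6.49 and 9.52 on the other.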
